A study of Mus musculus with 28 samples.

Results

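Neurotrophins and activity-regulated secreted factors were followed through development in the mouse dorsal lateral geniculate nucleus (dLGN), where thalamic relay neurons pass retinal signals on to visual cortex. The set held 8 genes chosen by name, Bdnf, Ntf3, Ntrk2, Ntrk3, Ngfr, Vgf, Scg2 and Igf1, out of 26581 genes listed in any of the deposited tables. Wild-type C57BL/6J mice of both sexes, under standard housing, gave 4 libraries at each of 7 ages, namely embryonic day 18 (E18) and days 4, 10, 16, 20, 27 and 32 after birth (P4 to P32). The labels describe 4 mice per age, processed as separate samples. The series concerns Fn14, a cytokine receptor, and its design compares adjacent ages. Whole microdissected tissue was sequenced after removal of ribosomal RNA, so each level is an average over all cell types, and in such bulk samples fewer cells of a type and less RNA per cell cannot be told apart.

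Neurotrophins are secreted growth factors that act through Trk receptor tyrosine kinases: brain-derived neurotrophic factor (Bdnf) binds TrkB (Ntrk2), and neurotrophin-3 (Ntf3) binds mainly TrkC (Ntrk3). The p75 receptor (Ngfr) binds all neurotrophins and their uncleaved precursors. VGF and secretogranin II (Scg2) are precursor proteins of dense-core vesicles, and insulin-like growth factor 1 (Igf1) signals through its own receptor tyrosine kinase. Transcription of Bdnf, Vgf and Scg2 is known to respond to neuronal activity in rodent neurons, and Igf1 to visual experience in mouse visual cortex.

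Library totals ran from 8224851 to 40206549 reads. A library is called by its age plus its column number, 3 to 6. Levels are CPM (read counts scaled to a common library size) with all 28 libraries scaled together by TMM, as mean ± SD with n = 4 per age. Some libraries stood apart. The summed level of 6 thalamic relay neuron markers was lowest in library 3 at P16 (1140 CPM), P20 (950.3), P27 (1481) and P32 (728.9). The other libraries of those ages held 2607 to 3809, 1587 to 3272, 2694 to 3833 and 2793 to 4245 CPM. At P10 the sum was lowest in library 5 (1657, against 2150 to 2322). These 5 libraries held the highest sums of 5 inhibitory neuron markers of their ages, for example 2342 CPM in P32 library 3 against 325.8 to 346.5 CPM in the others. E18 library 4 was also low in relay neuron markers (926.1 against 1312 to 1594 CPM) but not high in inhibitory ones (231.2 against 180.5 to 299.1), and it stays in whenever the 5 are left out. Without it, from E18 to P4, the calls of the 8 genes were as given. P20 library 6 stays in as well. It held 1587 CPM of relay neuron markers, less than P10 library 5, and 771.9 CPM of inhibitory ones. No marker of either list was at 0 in all libraries of an age. Choroid plexus markers summed to 144.1 to 1034 CPM at E18, highest in library 5, and to at most 31.82 CPM at later ages. Reads of both Xist (at least 1000) and Y-linked genes (at least 100) were present in all 4 E18 libraries and in 1 P27 library. These 5 libraries may therefore hold tissue of more than 1 animal, and n counts libraries. The 4 P4 libraries held Xist alone, so the sex make-up and the step from E18 to P4 cannot be told apart. At P10, 2 libraries held Xist alone and 2 Y-linked reads alone, so the make-up also shifted from P4 to P10. Libraries with Xist alone and with Y-linked reads alone then numbered 1 and 3 at P16, 3 and 1 at P20, 2 and 1 at P27, and 2 and 2 at P32. The part of these shifts in the steps was not tested.

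A change at any age was tested over all 28 libraries with edgeR's quasi-likelihood F test, and a gene was called at a Benjamini-Hochberg adjusted p under 0.05. It called 7 of the 8 genes, against 51% of all 19989 genes tested. The exception was Ntrk3 (edgeR adjusted p = 0.558), which was called once the 5 libraries of low relay neuron markers were left out (adjusted p = 0.000502, with 49.7% of all genes called). Those libraries, picked after seeing the data, held the highest Ntrk3 values of their ages, and none was from E18 or P4. That call therefore cannot decide whether Ntrk3 changed. Over the 21 pairs of ages in the fit of all 28 libraries, Vgf was called in 13, Ntf3 in 12, Igf1 in 11, Bdnf in 8, Ngfr and Ntrk2 in 9 each, Scg2 in 6 and Ntrk3 in 0, which made 68 of 168 for the set against 21.4% of all gene and pair combinations. Bdnf, Ntf3 and Ngfr had their highest means at P4, Vgf, Scg2 and Igf1 at P10, and Ntrk2 at P16. In the same fit none of these highest ages differed from the next highest age of its gene (adjusted p = 0.12 or above). The panels of levels by age show these 3 kinds of profile.

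**Figure D1:**
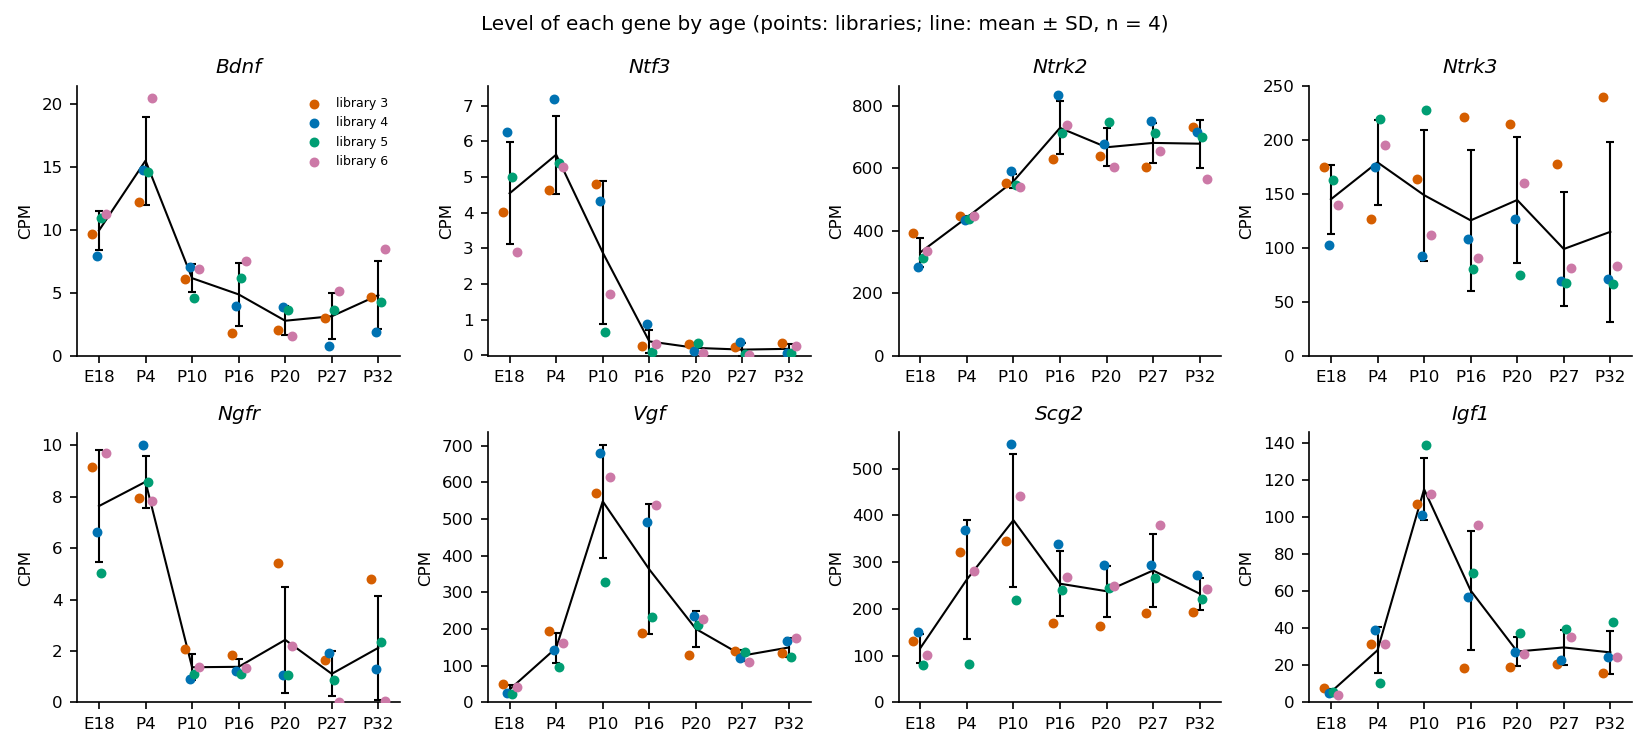
Level of each of the 8 genes (CPM, linear axes) at 7 ages; points are single libraries coloured by column number, and the line joins means with SD bars (n = 4 per age). Bdnf, Ntf3 and Ngfr have their highest means at P4, and Vgf, Scg2 and Igf1 at P10 (548, 390 and 115 CPM). Ntrk2 levels off from P16, and library 3 is the highest Ntrk3 point at each age from P16 on.

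Among the ligands, Bdnf was highest at P4 and had fallen by P10. Bdnf (gene ID 12064, chromosome 2, 109674700 to 109727043, plus strand, GRCm38) measured 9.68, 7.94, 10.9 and 11.3 CPM in E18 libraries 3 to 6. At P4 the same numbers gave 12.2, 14.8, 14.6 and 20.5 CPM, and at P10 6.08, 7.09, 4.63 and 6.92 CPM. Every P4 library was above every E18 and every P10 library. The log2 fold change was 0.65 (SE 0.21) from E18 to P4, which missed the threshold (edgeR adjusted p = 0.0947), and -1.31 (SE 0.22) from P4 to P10, which passed it (adjusted p = 0.00198). With the column number as a block, the earlier step passed as well (log2 0.63, adjusted p = 0.0051).

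From P16 on, Bdnf means lay between 2.80 ± 1.14 (P20) and 4.89 ± 2.51 CPM (P16). The P32 libraries alone spread from 1.92 to 8.47 CPM, across most of the range seen since P10. In the 28-library fit, Bdnf was lower than at P4 at each of the 5 later ages (log2 -1.33 to -2.49, adjusted p = 6.2e-05 to 0.0377), contrasts in which 12.1%, 32.7%, 36.7%, 37.9% and 38.2% of all genes were called in order of age. Without the 5 libraries of low relay neuron markers the P10 contrast of that fit did not pass (log2 -1.19, adjusted p = 0.0894) and the other 4 did. In the order of means, P4, E18, P10, P16, P32, P27 and P20, no 2 neighbouring ages differed in that fit (adjusted p = 0.214 or above). Summed markers of cortical and hippocampal neurons, which also make Bdnf, were 22.7 to 38.4 CPM at E18, 16.6 to 28.6 at P4 and 15.3 to 40.0 at P10 over 7 markers, and their part in the Bdnf values was not tested.

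Bdnf is transcribed from several promoters, which a count per gene adds together. One of them, shown because it holds the core of the cyclic AMP response element (CRE, bound by the activity-dependent factor CREB), is printed here with that core in capitals, read as CGTCA on the gene's strand. The window is the 250 bases before a RefSeq start, at chr2:109692186-109692435 on the plus strand of GRCm38.p6. The core begins 35 bases before the start.
Bdnf promoter: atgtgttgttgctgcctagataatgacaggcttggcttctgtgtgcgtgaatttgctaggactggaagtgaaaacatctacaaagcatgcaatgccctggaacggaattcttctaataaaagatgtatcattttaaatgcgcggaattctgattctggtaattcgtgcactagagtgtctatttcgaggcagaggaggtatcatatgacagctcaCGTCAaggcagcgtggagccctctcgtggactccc
Of the 7 Bdnf windows in the RefSeq table, 1 held TGACG on either strand, as did 17.77% of all 32851 promoter windows. A match is a description of these letters only, and reads from the separate Bdnf promoters were not distinguished.

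Ntf3 fell later and further, to near the detection limit. Ntf3 (gene ID 18205, chromosome 6, 126101412 to 126166789, minus strand) averaged 4.54 ± 1.43 CPM at E18 and 5.62 ± 1.10 at P4. At P10 its libraries 3 to 6 held 4.81, 4.33, 0.661 and 1.71 CPM, and at P16 they held 0.264, 0.863, 0.0976 and 0.327 CPM. At P10 library 3 lay inside the P4 range and library 4 just below it, while library 5, one of those with low relay neuron markers, had dropped into the P16 range. Ntf3 fell from P10 to P16 by 2.91 on the log2 scale (SE 0.72, edgeR adjusted p = 0.0198) and was the only one of the 8 genes called in that comparison, where 11.9% of all 17474 genes were called.

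That call was lost without P10 library 3 (adjusted p = 0.0665), P10 library 4 (0.052), P16 library 5 (0.059) or P16 library 6 (0.052), and it held without P10 library 5 and P16 library 3 together (log2 -3.15, adjusted p = 0.00837). From P16 to P32 the 4 libraries of an age together held 25, 16, 12 and 15 Ntf3 reads, and P27 library 6 held 0. For counting error alone, 0 reads there allow up to 0.0955 CPM, taken on the library total before TMM scaling. Between P4 and P10 the log2 fold change of -0.96 (SE 0.47) missed the threshold (adjusted p = 0.183) but passed with the block (log2 -1.16, adjusted p = 0.0468). Of neighbouring ages in the order of its means, P10 and P16 differed (adjusted p = 0.00578, with 10.9% of all genes called) and the other 5 pairs did not pass (0.42 or above).

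The receptor genes took 3 different courses. Ntrk2 (gene ID 18212, chromosome 13, 58806569 to 59133970, plus strand) rose in small steps while its spread within an age stayed narrow. Its libraries held 284.5 to 391.2 CPM at E18, 434.9 to 447.7 at P4, 540.4 to 591.3 at P10 and 629.3 to 834.8 at P16. These ranges did not overlap at any of the 3 steps, but how many of all genes separate in this way was not counted. The log2 fold changes were 0.43 (SE 0.14), 0.36 (SE 0.12) and 0.37 (SE 0.18), and none passed in the 8-library fits (edgeR adjusted p = 0.0925, 0.0572 and 0.21). The first and second steps passed with the block (adjusted p = 0.00578 and 0.0123) and with DESeq2 (0.0285 and 0.00642). Over the 3 steps together, the 28-library fit gave a log2 fold change of 1.14 for P16 against E18. That contrast passed (edgeR adjusted p = 1.23e-07), where 44.6% of all genes were called. From P16 to P32 the means stayed between 666.6 and 728.5 CPM, and neighbouring ages in the order did not differ (0.0697 or above). Counts per gene do not separate full-length TrkB from the truncated form that astrocytes carry, and the summed level of 7 astrocyte markers rose beside Ntrk2, from 273.3 to 462 CPM at E18 to 4853 to 5546 at P16. Their part in the rise was not tested.

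Ntrk3 (gene ID 18213, chromosome 7, 78179986 to 78577859, minus strand) varied more between libraries than between ages. Its means lay between 99.2 ± 52.9 CPM (P27) and 179.5 ± 39.4 CPM (P4), and no step between adjacent ages passed. At P32, library 3 held 239.9 CPM and libraries 4 to 6 held 71.0, 66.4 and 83.2 CPM. At P27 the corresponding values were 177.9, 69.6, 67.2 and 81.9 CPM. Library 3 was the highest for Ntrk3 at all 4 ages from P16 to P32, and P10 library 5 was the highest at P10 (227.9 CPM), so the highest Ntrk3 value of each of these ages lay in the library with the lowest relay neuron sum and the highest inhibitory neuron sum.

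Without those 5 libraries, Ntrk3 means were 179.5 ± 39.4 CPM at P4 (n = 4), 122.8 ± 37.2 at P10, 93.6 ± 14.1 at P16, 121.0 ± 42.9 at P20, 72.9 ± 7.89 at P27 and 73.5 ± 8.65 at P32 (n = 3 each). In that 23-library fit Ntrk3 was lower at P27 than at P4 by a log2 fold change of -1.27 (adjusted p = 0.000268), where 36% of all genes were called, and lower at P32 than at P4 by -1.25 (adjusted p = 0.000307), where 36.8% were called. With all 28 libraries the same contrasts gave -0.86 (adjusted p = 0.0958) and -0.64 (adjusted p = 0.218). Each library left out held the highest Ntrk3 value of its age, and none was from E18 or P4. Leaving them out, a choice made after seeing the data, thus lowered the later means and narrowed their spread. The adjusted p-values of the 23-library fit therefore cannot test a fall of Ntrk3. The part of the cell make-up of these libraries in the difference was not tested.

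**Figure D2:**
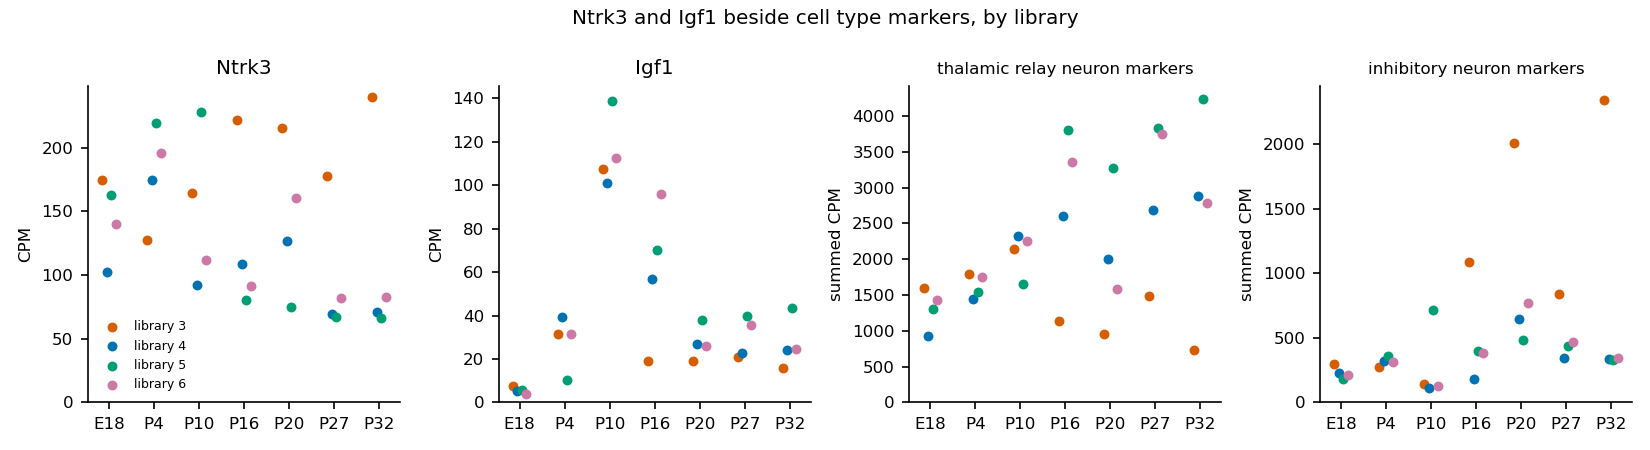
Ntrk3 and Igf1 (CPM) beside the summed CPM of 6 thalamic relay neuron markers and of 5 inhibitory neuron markers at 7 ages, each point a library coloured by column number, all axes linear from 0. From P16 to P32 library 3 is the highest point for Ntrk3 and inhibitory markers and the lowest for Igf1 and relay markers at all 4 ages.

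Ngfr (gene ID 18053, chromosome 11, 95568818 to 95587698, minus strand) dropped between P4 and P10. Its P4 libraries 3, 5 and 6 held 7.93, 8.56 and 7.84 CPM and library 4 held 10 CPM, and its P10 libraries 2.06, 0.919, 1.12 and 1.37 CPM. Every P10 library was far below every P4 library, and the log2 fold change of -2.57 (SE 0.28) passed (edgeR adjusted p = 0.000135). E18 libraries held 9.16, 6.64, 5.05 and 9.70 CPM, overlapping those of P4 (log2 0.17, SE 0.24, adjusted p = 0.753). After P10 the mean stayed between 1.11 ± 0.87 (P27) and 2.43 ± 2.06 CPM (P20), while single libraries ran from 0 in P27 library 6 to 5.42 CPM in P20 library 3. Library 3 was the highest for Ngfr at 3 of the 4 ages from P16, and without it the means were 1.44 ± 0.658 CPM at P20 and 1.23 ± 1.15 at P32 (n = 3), against 2.43 and 2.12 CPM with it. P27 library 6, which held 0 Ngfr reads in a total of 31406305, also had the fewest genes detected of the 28 libraries, 16938. P32 library 6 held 1 Ngfr read in a total of 21177220, with 19117 genes detected.

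Of the dense-core vesicle genes, Vgf rose over both steps to P10, and the 6 pairs of ages called for Scg2 were all higher against E18. Vgf (gene ID 381677, chromosome 5, 137025300 to 137033351, plus strand), whose product is cut into secreted peptides, held 51.4, 25.2, 23.5 and 41.0 CPM at E18, and 193.5, 144.0, 95.7 and 161.3 CPM at P4. At P10 it held 570.3, 681.3, 328.0 and 613.3 CPM. Each age lay wholly above the one before it. Vgf rose by a log2 fold change of 2.09 (SE 0.29, edgeR adjusted p = 0.00175) from E18 to P4 and by 1.90 (SE 0.25, adjusted p = 0.000465) from P4 to P10.

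At P16 Vgf split, with libraries 4 and 6 at 491.5 and 537.2 CPM and libraries 3 and 5 at 190.0 and 231.7 CPM. Libraries 4 and 6 thus stayed inside the P10 range and the others fell below it (log2 -0.61, SE 0.34, adjusted p = 0.309). Vgf then measured 200.5 ± 49.0 CPM at P20, 127.7 ± 13.96 at P27 and 149.9 ± 25.6 at P32. In the 28-library fit it was lower at P20, P27 and P32 than at P10 (log2 -1.45, -2.10 and -1.87, adjusted p = 0.00103, 1.04e-05 and 4.66e-05), and lower at P27 and P32 than at P16 (log2 -1.51 and -1.27, adjusted p = 0.0186 and 0.0326). Of all genes, 15.1%, 20.2% and 19.2% were called in the first 3 contrasts, and 0.345% and 1% in the last 2. Between P16 and P27 Vgf was 1 of 69 genes called. In the order of its means only P27 and E18 differed as neighbours (adjusted p = 1.42e-05, with 47.2% of all genes called), and the other 5 neighbouring pairs did not pass (0.244 or above).

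Scg2 (gene ID 20254, chromosome 1, 79434669 to 79440123, minus strand) measured 116.1 ± 31.1 CPM at E18 and 389.7 ± 142.6 at P10. Its P4 libraries held 321.3, 368.8, 81.1 and 280.3 CPM. Library 5 was at the lowest E18 value (80.7 CPM) and the other 3 were above every E18 library, and library 5 was also the lowest P4 library for Igf1 and Vgf. The step from E18 to P4 (log2 1.19, SE 0.39) did not pass in the 8-library fit (edgeR adjusted p = 0.0976) and passed without P4 library 5 (log2 1.49, adjusted p = 0.00642), with the block (adjusted p = 0.00215) and with DESeq2 (0.0291). In the authors' deposited table the fold of 2.24 for Scg2 had an adjusted p of 0.0225. The step from P4 to P10 (log2 0.59, SE 0.39, adjusted p = 0.324) passed with the block alone of the alternatives run (log2 0.71, adjusted p = 0.0092). From P16 to P32 its means lay between 232.5 and 282.2 CPM, all above E18, and in the 28-library fit the nearest of these to E18, P32, differed from it (adjusted p = 0.0132, with 47.5% of all genes called). The other 5 neighbouring pairs in the order of its means did not pass (0.352 or above), P10 and P27 among them. Library 3 was the lowest for Scg2 at all 4 ages from P16 to P32.

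Of the 6 genes with a RefSeq promoter window, which exclude Vgf and Ntrk3, Scg2 alone held a whole CRE palindrome, TGACGTCA, and 30 bases around it are shown for comparison with the shorter Bdnf core. They lie at chr1:79440076-79440105 of GRCm38.p6, read on the minus strand, with the palindrome in capitals beginning 68 bases before the RefSeq start and inside the longer gene span of the deposited tables.
Scg2 site: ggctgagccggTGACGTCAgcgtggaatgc
The palindrome stood in 1.55% of all promoter windows. The 6 genes had 13 windows in all. The pattern TGANTCA, where N is any base, is looser than the AP-1 motif and was searched on both strands. It was found in 1 Bdnf and 1 Igf1 window, both times as TGAATCA, and in 6.75% of all windows.

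Igf1 (gene ID 16000, chromosome 10, 87858270 to 87937047, plus strand) had a steep, brief peak. It held 7.66, 5.30, 5.75 and 3.92 CPM at E18 and 31.3, 39.2, 10.5 and 31.6 CPM at P4. At P10 its libraries held 107.4, 101.2, 139.0 and 112.6 CPM, and at P16 18.9, 57.1, 69.98 and 95.8 CPM. The P10 libraries were above every library of every other age. Igf1 rose by 2.33 (SE 0.37, edgeR adjusted p = 0.00389) and 2.05 (SE 0.31, adjusted p = 0.00115) on the log2 scale over the first and second steps.

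The fall of Igf1 from P10 to P16 (log2 -0.94, SE 0.35) did not pass in the 8-library fit (adjusted p = 0.104). It passed with DESeq2 (0.0448), without P16 library 3 (0.0472) and without P16 library 6 (0.0417). With the block it passed as well, but same-numbered columns were linked only in part there. Columns 3 to 5 correlated at 0.266 or above and column 6 at 0.013. The log2 value without P16 library 3 was -0.65, and without that library and P10 library 5 it was -0.55 (adjusted p = 0.106). By P20 Igf1 had returned to 27.5 ± 7.75 CPM, close to its P4 mean of 28.2 ± 12.3, and it was lower at P20, P27 and P32 than at P10 in the 28-library fit (log2 -2.07, -1.95 and -2.09, adjusted p = 0.000301, 0.000398 and 0.000193). Of neighbours in the order of means, P32 and E18 differed (adjusted p = 2.95e-05) and the other 5 pairs did not pass (0.12 or above). Summed markers of microglia, cells that can also make Igf1, were 23.93 to 33.77 CPM at E18 and 64.04 to 81.59 at P4. They were 119.5 to 148.4 CPM at P10 and 149.5 to 168.9 at P16. The library lowest in relay neuron markers was also the lowest in Igf1 at all 4 ages from P16 to P32, while at P10 the library lowest in those markers had the highest Igf1. The part of cell make-up in these values was not tested.

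All calls of the 8-library edgeR fits lay in the 3 steps up to P16. From E18 to P4, 2 of the 8 genes were higher and 0 lower, against 4.75% of all 18797 genes higher and 3.12% lower (7.87% in all), and the median log2 fold change of the 8 was 0.54 beside -0.02 over all genes. With the block, which the same-numbered columns at these ages allow, 5 were higher and 0 lower, but so were 15.8% and 13.6% of all genes (29.4% in all). From P4 to P10, Vgf and Igf1 were higher and Bdnf and Ngfr lower, against 10.3% and 8.16% of all 17717 genes (18.4% in all), and with the block 4 were higher and 3 lower, against 18% and 18.1% (36.2% in all). From P10 to P16, 0 were higher and 1 was lower, against 6.2% and 5.65%, with a median of -0.47 beside 0.01 over all genes. Scaling by total counts instead of TMM moved the split of all genes called from 893 higher and 586 lower to 613 and 686 in the first step, from 1821 and 1446 to 1360 and 1702 in the second, and from 1084 and 987 to 797 and 1238 in the third, and left the counts of the 8 genes as given. Leaving out P10 library 5 and P16 library 3 also left the counts of the 8 genes as given, from P4 to P10 and from P10 to P16.

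After P16 no step was called, for these genes or for any other. In each of the 3 comparisons 7 of the 8 genes were tested, Ntf3 being too low, and edgeR called 0 of 17949, 0 of 18070 and 0 of 17856 genes (0% in each), with 485, 476 and 73 genes at an unadjusted p under 0.05. DESeq2 called 0, 7 and 0 genes and limma-voom 0 in each, with 0 of the 8 genes under either. Igf1 from P16 to P20 (log2 -1.14, SE 0.39, adjusted p = 0.993) and Vgf from P16 to P20 (log2 -0.86, SE 0.34, adjusted p = 0.993) and from P20 to P27 (log2 -0.67, SE 0.20, adjusted p = 0.929) were among those with an unadjusted p under 0.05. In the plot of stepwise changes the errors are widest for Ngfr after P20, where its counts were low.

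**Figure D3:**
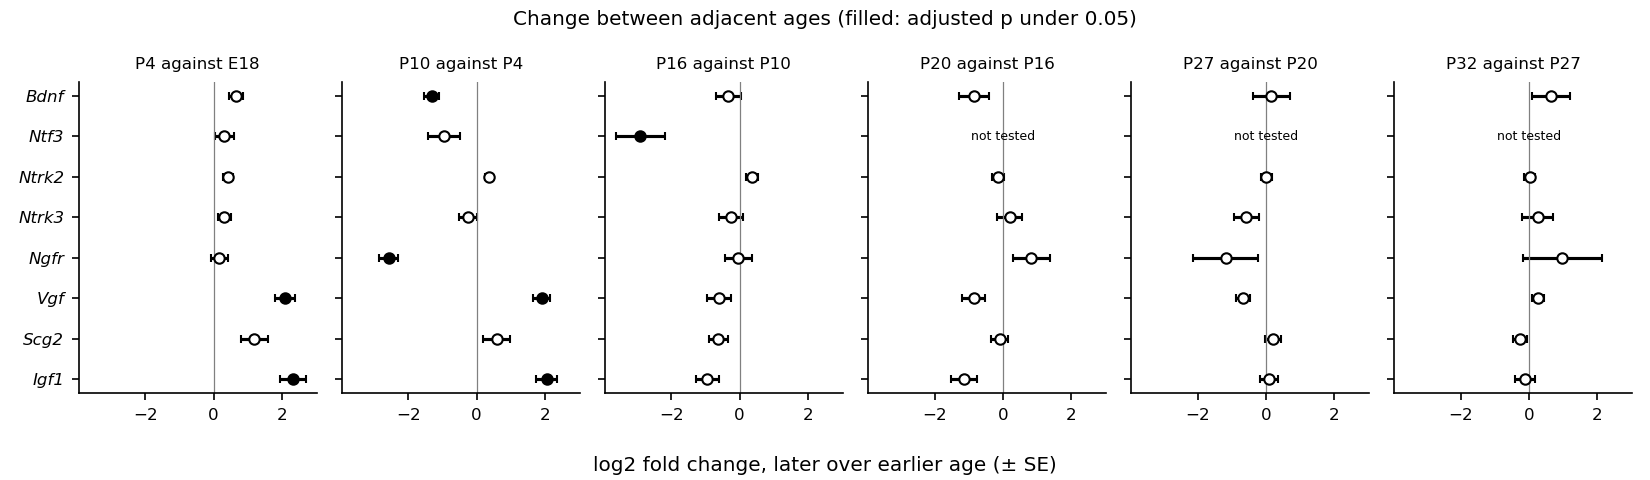
Log2 fold change of each gene, later over earlier age, with SE bars, in the 6 comparisons of adjacent ages (edgeR, 8 libraries each, linear axis); filled points had an adjusted p under 0.05 and Ntf3 was not tested after P16. The 7 filled points lie in the first 3 comparisons: Vgf and Igf1 in both steps up to P10, Bdnf and Ngfr from P4 to P10, and Ntf3 from P10 to P16.

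The balance between members was described per length within each library, since gene models differ in length. The length is that of the deposited gene model, for example 20369 bases for Ntrk2 and 2518 for Scg2. It need not be that of the transcripts present, and the ratios and order below depend on it. Bdnf stood at 0.751 of the Ntf3 level at E18 on average (0.39 to 1.2 over the 4 libraries) and at 10.5 times that level at P32 (4.26 to 17.5). In between, the libraries spread from 0.388 to 2.15 at P10, 1.41 to 19.5 at P16 and 0.676 to 41.8 at P27, where library 4 lay inside the E18 range. From P16 on each ratio rests on 1 to 12 Ntf3 reads. At E18 the 4 libraries held 1183 Bdnf and 509 Ntf3 reads before scaling by length. Ntrk2 stood at 2.03 times Ntrk3 at E18 (1.67 to 2.42) and at 6.65 times at P32 (2.66 to 9.21). In that last range the lowest value was library 3, where Ntrk3 was high. As levels of CPM per kb at P32, Scg2 (92.3 ± 13.5) and Vgf (43.3 ± 7.39) were above Ntrk2 (33.3 ± 3.77), and Igf1 (3.01 ± 1.31), Bdnf (0.72 ± 0.404) and Ntf3 (0.087 ± 0.0646) were lower. In CPM without the length, Ntrk2 (678.0 ± 76.8) was above Scg2 (232.5 ± 34.0) and Vgf (149.9 ± 25.6) at that age.

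**Figure D4:**
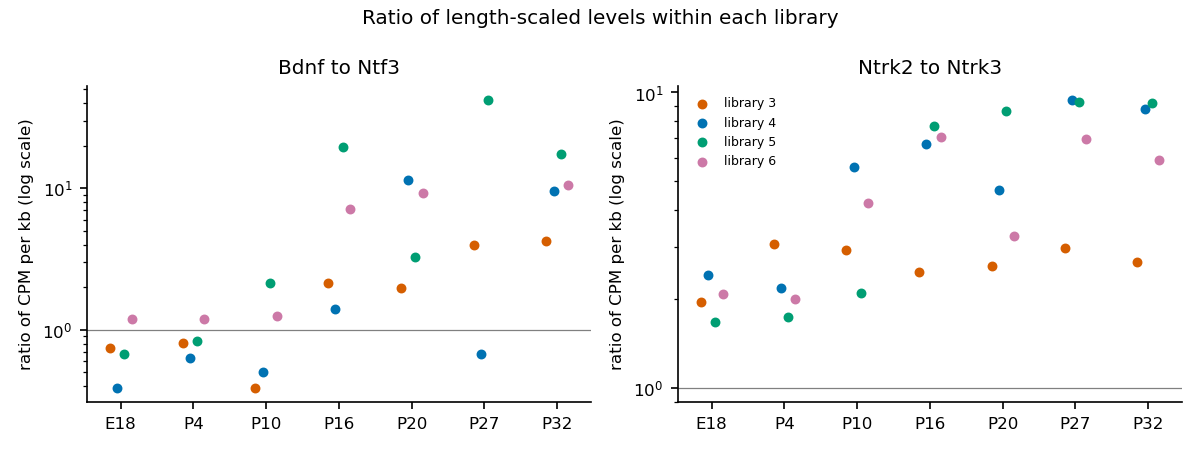
Ratio of length-scaled levels (CPM per kb, log axis) of Bdnf to Ntf3 and of Ntrk2 to Ntrk3 within each library at 7 ages, points coloured by column number; P27 library 6 has no Bdnf to Ntf3 point because it held 0 Ntf3 reads. The mean Bdnf to Ntf3 ratio goes from 0.751 at E18 to 10.5 at P32, and library 3 keeps the lowest Ntrk2 to Ntrk3 ratio at each age from P16 on.

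Lists of partner genes were set against these shares of all genes. Of 8 sorting and co-receptor genes tested from P4 to P10, 4 rose and 1 fell, against 10.3% and 8.16% of all genes, with a median log2 fold change of 0.49 beside -0.01 over all genes. From E18 to P4, 0 of 9 passed, and with the block 2 rose and 3 fell, against 15.8% and 13.6%. The largest rise from P4 to P10 was that of Sorcs1, a member of the sortilin family, which rose from 23.3 ± 13.9 to 90.1 ± 15.5 CPM (log2 1.96, SE 0.33, adjusted p = 0.00193). From P10 to P16, 2 of 8 rose and 1 fell, against 6.2% and 5.65%, and the largest rise was that of Sorl1, another sortilin family receptor (log2 0.90, SE 0.19, adjusted p = 0.00769).

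Proteases and inhibitors that set the cleavage of neurotrophin precursors were mixed. Of 8 tested, 1 rose and 1 fell from E18 to P4, 2 rose and 2 fell from P4 to P10, and 1 rose and 1 fell from P10 to P16. The shares of all genes were 4.75% and 3.12%, 10.3% and 8.16%, and 6.2% and 5.65%. With the block the first count became 2 rising and 1 falling, against 15.8% and 13.6%. Mmp9, a matrix metalloproteinase that cleaves proBDNF, fell from 13.4 ± 1.32 to 4.30 ± 0.604 CPM in the first step (log2 -1.62, SE 0.19, adjusted p = 0.000852). Plat, tissue plasminogen activator, rose from P10 to P16 (log2 1.16, SE 0.24, adjusted p = 0.00735).

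Of 15 Trk adaptor genes tested in each step, 1 rose and 0 fell from E18 to P4, 2 rose and 2 fell from P4 to P10, and 2 rose and 1 fell from P10 to P16. Over all genes 7.87%, 18.4% and 11.9% passed in these steps. With the block the first and second counts became 3 and 1, then 4 and 4, where 29.4% and 36.2% of all genes passed. Shc3, a neuronal adaptor of the Shc family, rose from E18 to P4 (log2 1.25, SE 0.20, adjusted p = 0.00361) and from P4 to P10 (log2 0.74, SE 0.16, adjusted p = 0.00704), from 13.1 ± 3.62 CPM at E18 to 51.2 ± 9.27 at P10, and the second call was lost in the 28-library fit (adjusted p = 0.214). Among 14 granin and dense-core vesicle genes, 1 rose from E18 to P4, 2 rose and 1 fell from P4 to P10, and 3 rose from P10 to P16. Over all genes 4.75%, 10.3% and 6.2% rose. With the block 5 and then 7 rose in the first and second steps, against 15.8% and 18% of all genes. The last 3 genes included Pcsk2, a convertase that cuts granin precursors, which rose from 111.6 ± 40.4 to 369.3 ± 131.1 CPM (log2 1.71, SE 0.33, adjusted p = 0.00465), at a step where Vgf and Scg2 had log2 values of -0.61 and -0.63 that did not pass.

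In the IGF pathway, 16 of 18 listed genes were tested at each step, of which 2 rose and 2 fell, then 1 rose, then 1 rose and 3 fell, against 7.87%, 18.4% and 11.9% of all genes called. With the block 4 rose and 4 fell in the first step, and 2 rose and 1 fell in the second, against 29.4% and 36.2%. Pappa, a protease that frees IGF from its binding proteins, rose from 13.8 ± 6.31 CPM at P4 to 54.99 ± 27.4 at P10 (log2 2.00, SE 0.38, adjusted p = 0.00384) and fell to 14.6 ± 12.4 at P16 (log2 -1.91, SE 0.50, adjusted p = 0.0262), so that its highest mean fell at P10, as for Igf1. Igfbp2, an IGF binding protein, fell from 81.3 ± 19.0 to 21.5 ± 10.9 CPM from P10 to P16 (log2 -1.93, SE 0.30, adjusted p = 0.00119). The receptor gene Igf1r rose in the same step (log2 0.73, SE 0.21, adjusted p = 0.0369), a call lost in some fits that left out 1 library (adjusted p up to 0.101) and without P10 library 5 and P16 library 3 together (0.0897).

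Activity-regulated transcription and synapse genes were set beside the secreted factors. Of 20 tested from E18 to P4, 2 rose and 2 fell, against 4.75% and 3.12% of all genes, and with the block 7 and 4, against 15.8% and 13.6%. Leaving out 1 library gave 0 to 2 rising and 0 to 4 falling, with 0 rising without E18 library 4. Of 20 tested from P10 to P16, the step that spans eye opening, 6 rose and 0 fell, against 6.2% of all genes higher, with a median of 0.45. They were Arc (5.82 ± 1.36 to 24.9 ± 13.7 CPM, log2 2.08, SE 0.34, adjusted p = 0.0018), Dusp1, Fosb, Fos, Jun and Egr1. In the same comparison Bdnf, Vgf, Scg2 and Igf1 had negative log2 values, -0.33, -0.61, -0.63 and -0.94, none of which passed. From P4 to P10, when Vgf and Igf1 rose, 5 of 21 genes in the activity list passed upward and 0 downward (7 and 1 with the block), against 10.3% and 8.16% of all genes (18% and 18.1% with the block), among them Egr1 (log2 1.22, SE 0.27, adjusted p = 0.00972), while Fos measured 12.5 ± 10.3 CPM at P4 and 9.38 ± 0.0569 at P10. The difference in course between the groups was not tested. Of 7 other activity-regulated secreted factors tested from P4 to P10, 1 rose, Nrn1 (neuritin, log2 0.93, SE 0.20, adjusted p = 0.00738, and 0.31 in the 28-library fit), and from P10 to P16 0 of 7 passed in either direction.

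**Figure D5:**
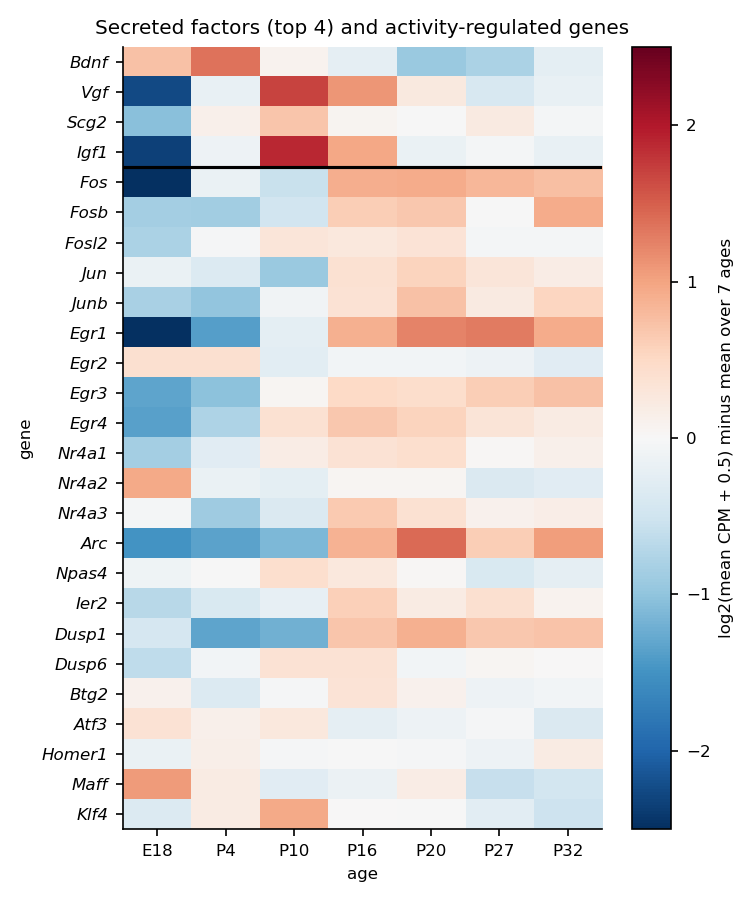
Mean level at 7 ages as log2(mean CPM + 0.5) minus its mean over the ages, for 4 secreted factors (above the line) and for activity-regulated transcription and synapse genes (below), red high and blue low. Vgf, Scg2 and Igf1 are reddest at P10 and Bdnf at P4, while Arc, Fos, Dusp1 and Egr1 are red from P16 on.

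The genes whose log2(CPM + 0.5) followed each member most closely were taken from 11605 genes over the 28 libraries, as a description, since libraries of one age share its level. The highest Pearson correlations were with Dnm1 for Ntrk2 (0.977), Cacnb1 for Ntf3 (0.955), Epb4.1l4b for Vgf (0.951), Herc3 for Igf1 (0.917), Ptprt for Ntrk3 (0.916), Tmem200a for Ngfr (0.905), Map9 for Bdnf (0.875) and Cck for Scg2 (0.871). For Igf1, Vgf itself was rank 3 (0.904).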

How the data were processed

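Read counts per gene and library were used as the authors deposited them, whole and not normalized, in 12 tables (a pair per comparison of adjacent ages, genes going up and genes going down), merged by gene ID. The authors' fold change, a ratio of later to earlier age, and their adjusted p-value served only in sentences that name that table. Gene length in bases is another deposited value, used for CPM per kb. Per the submitters' processing notes, BWA, edgeR 3.14.0 and GRCm38 (mm10) were used. Counting tool, annotation and use of strand were not given in the sources used here. Reads of antisense genes that overlap Bdnf, Ntrk2, Ntrk3 and Igf1 cannot be told apart. Listed genes held at least 4 reads over 8 libraries, and 96 columns of read density were not used. Of the listed symbols, 32 were looked up by gene ID.

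Each pair of adjacent ages was tested on its 8 libraries with edgeR 4.0.16 in R 4.3.3 (filterByExpr, TMM, glmQLFit and glmQLFTest, two-sided, Benjamini-Hochberg over all genes tested, threshold 0.05). All 28 libraries were fitted together for any change and for the 21 pairs of ages. SE is the log2 fold change divided by the square root of F. Alternatives were other scaling, no filter, DESeq2 1.42.0, limma-voom (limma 3.58.1), 1 fit of 28 libraries, a block on the column number, each library left out, and the authors' adjusted p. Leaving out the 5 libraries of low relay neuron markers was chosen after seeing the data. Scripts were tested on simulated data. No fit held a term for sex. The labels describe 4 mice per age as independent samples, and replicate numbers there could not be tied to the columns.

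Deviations from the age means correlated between same-numbered columns in every pair for P4 against E18 (0.382 or above) and P10 against P4 (0.194 or above), so the block is given there beside the results. Differently numbered columns reached 0.31 and 0.262 in these comparisons. A library was closest to its own number in 8 of 8 and 7 of 8 cases. The link was read from these same data. No library repeated another within sampling noise (chi-square per degree of freedom at least 27.29). Intervals and floors (3 counts) cover counting error only. Where libraries of different ages are said not to overlap, the share of all genes that separate in this way was not computed. Members and lists were chosen with earlier results of these data known. Named list genes are those of largest rise or fall per list and step whose mean reaches 5 CPM, and a selection is given. The fall of Pappa and Dusp1, Fosb, Fos, Jun and Egr1 from P10 to P16 were named after their values were seen. Promoter windows are those of RefSeq on GRCm38.p6. Results for some genes of the pathway lists are not reported here.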

Additional observations from a re-analysis of the deposited data

Results flagged for a closer look

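In 56 groups of 4 libraries (8 genes at 7 ages), 2 had a library far from the other 3, both for Ntrk3, and chance alone sets about 1 in 20 groups apart in this way. At P27, library 3 held 177.9 CPM and the others 67.2 to 81.9 CPM, a gap of 0.867 of the whole range. At P32, library 3 held 239.9 CPM and the others 66.4 to 83.2 CPM, a gap of 0.904 of the range. These libraries also had the lowest relay neuron and the highest inhibitory neuron marker sums of their ages, and the part of that in the Ntrk3 values was not tested.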

How the results depend on the processing

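Direction and side of the threshold held for Vgf and Igf1 over both rises, and for Bdnf and Ngfr from P4 to P10, under every alternative run in the 8-library comparisons and with 1 fit of all 28 libraries. In the fit of 23 libraries, without those of low relay neuron markers, Bdnf from P4 to P10 did not pass (-1.19, adjusted p = 0.0894). From E18 to P4, DESeq2 called 5 of the 8 genes higher and 2289 genes in all, and the block on the column number 5 and 5528, against 2 and 1479. Leaving out 1 library gave 2 to 3 and 774 to 1409, the lowest without E18 library 5. From P4 to P10 the block called 4 higher, 3 lower and 6408 in all, against 2, 2 and 3267, and leaving out 1 library gave 2 higher, 2 lower and 2082 to 3187, the lowest without P10 library 6. From P10 to P16 DESeq2 and the block each called 2 of the 8 lower, and the block 3398 genes in all, against 1 and 2071. Leaving out 1 library gave 0 to 2 and 1274 to 2509. From P16 to P20 the block and the authors' deposited table called 1 gene each, against 0. From P20 to P27 total-count scaling, no filter and the 28-library fit called 1 gene each, DESeq2 called 7 and 5 passed in the authors' deposited table, against 0, and leaving out 1 library gave 0 to 1. The cause of these differences was not tested. In the last 4 comparisons same-numbered columns were linked only in part. Columns 3, 4 and 5 correlated at 0.266 to 0.598 in their deviations and column 6 at -0.18 to 0.013. A library was closest to its own number in 6 of 8 cases in each comparison. The block changed 1 call there for the 8 genes, Igf1 from P10 to P16 (adjusted p = 0.0239). It changed no other call of the 8 beyond those given with the results.

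Sign changed only for values that did not pass. Ngfr from P10 to P16 was 0.018 with the block and -0.20 to 0.24 with 1 library left out. Ntrk2 from P20 to P27 was -0.00181 with relative log expression scaling and -0.00185 with DESeq2, and from P27 to P32 -0.0054 in the 28-library fit and -0.095 without the libraries of low relay neuron markers. With 1 library left out, Ntrk2 ran from -0.0504 to 0.0591 and from -0.047 to 0.084 in these comparisons. Under the same removals Ngfr from E18 to P4 ran from -0.011 to 0.31, Bdnf from P20 to P27 from -0.15 to 0.47, and Scg2 from P16 to P20 from -0.22 to 0.074. Igf1 ran from -0.072 to 0.27 from P20 to P27 and from -0.42 to 0.0596 from P27 to P32. Ntrk3 ran from -0.69 to 0.022 from P10 to P16, from -0.047 to 0.66 from P16 to P20 and from -0.43 to 0.68 from P27 to P32. Few reads stood behind most values of Ntf3 after P16 and of Ngfr after P4, also in libraries of high totals.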
